A study of Mus musculus with 2 samples.

Results

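Arterial-type endothelial cells were the 115 cells, of 892 endothelial cells and 6272 cells in all, that carried several arterial genes, no detected Prox1 and few endocardial genes. They were chosen by their own transcripts and not by a deposited annotation, so the levels of the genes named in this paragraph describe the choice. A cell counted as endothelial when at least 4 of the 8 genes Pecam1, Cdh5, Tie1, Emcn, Egfl7, Plvap, Esam and Ptprb had at least 1 unique molecular identifier (UMI, a count of 1 captured transcript) and the blood cell gene Ptprc had none. An endothelial cell was called arterial-type when it had at least 3 of the 7 genes Gja4, Gja5, Hey1, Dll4, Sox17, Cxcr4 and Efnb2, no UMI of the lymphatic regulator Prox1, and fewer than 3 of the 6 endocardial genes Npr3, Nfatc1, Hapln1, Gata4, Cgnl1 and Tll1. The endothelial cells below 3 arterial genes that met both exclusions are called remaining endothelial cells here, and there were 45 of them in the control library and 153 in the mutant library.

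The study asked how an activated PI3K, expressed in the cardiopharyngeal mesoderm that gives rise to vessels of the head and neck, alters cells of that lineage in embryos with vascular malformations. Control embryos were Isl1-Cre;R26R-eYFP and mutant embryos were Isl1-Cre;R26R-eYFP;Pik3caH1047R, both at E13.5, so both groups carried the Cre and the yellow fluorescent reporter. Isl1-Cre acts in cells that expressed Isl1 or descend from them, which include endothelium, muscle, mesenchyme and neurons. For each genotype, the tissue above the liver of 3 embryos was pooled, eYFP+ cells were sorted, and 1 library was made with 10x 5′ chemistry. The 2 genotypes are therefore compared through 1 library each, no test between them was possible, and genotype, pool, litter and library cannot be told apart. All intervals given are exact 95% intervals and cover counting error only.

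The control library held 4505 barcodes with 66935720 UMIs, and the mutant library held 5357 barcodes with 73915525 UMIs. Cells with 2001 to 8999 detected genes and under 10% mitochondrial UMIs were kept, which left 2783 control and 3489 mutant cells. The 41 control members held 834785 UMIs, with a median of 20951 and a range of 4899 to 39895 per cell. The 74 mutant members held 1145805 UMIs and were shallower, with a median of 12995 and a range of 3504 to 43173. The 2 libraries shared 28 barcodes as deposited and 12 among the kept cells, and none of these was a member. In 38 of the 41 control members, Xist was the only sex-linked transcript detected, and no control member had Y-linked transcripts alone. Among the mutant members, 17 had Xist alone and 43 had Y-linked transcripts alone, and 3 control and 14 mutant members could not be assigned, so the mix of sexes differed between the libraries. Pik3ca was at 41.9 counts per 1000000 UMIs of the cells summed (CPM) in control and 41.0 in mutant members. These counts do not separate the H1047R transcript from the endogenous one and do not check the labels.

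Arteries and veins acquire distinct endothelial programmes before and during the onset of flow. In the arterial programme, VEGF signalling induces the Notch ligand Dll4, Notch activates the transcriptional repressors of the Hey family, and the transcription factor Sox17 acts with them. Gja4 and Gja5 encode the connexins of arterial gap junctions, Efnb2 encodes the ephrin that pairs with the venous receptor Ephb4, and Cxcr4 encodes the receptor of Cxcl12, which guides the assembly of arteries from smaller vessels. PI3K acts downstream of VEGF and Tie receptors in these cells. Hypoxia-inducible factors (HIFs) are transcription factors that accumulate when oxygen is low, or when growth signals raise their production, and they activate glucose uptake, glycolysis and VEGF-A.

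On GRCm38, with gene bodies from GENCODE vM21, the 7 arterial genes of the rule lay on 5 chromosomes. Gja4 spans chr4:127311421-127314039 on the minus strand. Gja5 spans chr3:96904693-97077416 on the plus strand, and Hey1 lies on the same chromosome at chr3:8663359-8667256 on the minus strand. Dll4 spans chr2:119325784-119335962 on the plus strand. Sox17 and Cxcr4 lie on the minus strand at chr1:4490931-4497354 and chr1:128588199-128592293. Efnb2 spans chr8:8617434-8661242 on the minus strand. Counts in these data are per gene, so they do not resolve exons, introns or transcript ends.

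Arterial-type cells made up a larger share of the control endothelium than of the mutant endothelium, while their share of all sorted cells differed less between the genotypes. They were 26.8% of the 153 control endothelial cells (interval 19.97 to 34.5) and 10.0% of the 739 mutant endothelial cells (7.94 to 12.4), and these intervals did not overlap. Of all kept cells they were 1.47% in control (1.06 to 1.99). In mutant this share was 2.12% (1.67 to 2.66), and here the intervals overlapped. The endothelium itself took 5.50% of the kept control cells and 21.2% of the kept mutant cells. The number of genes detected depends on depth, so the shares were repeated on cells downsampled to 5000 UMIs each. Shallower cells, 61 in control and 173 in mutant, could not enter. The thinned shares of the endothelium were 22.7% in control (16.1 to 30.5) and 6.94% in mutant (5.12 to 9.15), and those of all cells were 1.18% and 1.39%.

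Endocardial-gene cells were a larger share of the endothelium in mutant, at 40.1% (36.5 to 43.7, 296 cells) beside 17.6% in control (11.96 to 24.6, 27 cells). Prox1-detected cells were 26.1% in control (19.4 to 33.9, 40 cells) and 29.2% in mutant (25.97 to 32.7, 216 cells), with overlapping intervals. Arterial-type cells were 47.7% of the arterial-type and remaining cells together in control (36.8 to 58.7, 86 cells) and 32.6% in mutant (26.5 to 39.1, 227 cells). After thinning, these shares were 28.3% and 10.6%. With Prox1-detected and endocardial-gene cells kept, 80 of 153 control (52.3%) and 210 of 739 mutant endothelial cells (28.4%) had at least 3 arterial genes. At least 3 arterial genes were also detected in 57.5% of control and 27.8% of mutant Prox1-detected cells, and in 59.3% and 25.7% of endocardial-gene cells. After thinning, the Prox1-detected shares were 11.8% in control (2 of 17 cells, 1.46 to 36.4) and 12.6% in mutant (11 of 87, 6.48 to 21.5), with overlapping intervals. The endocardial-gene shares were then 45.5% (5 of 11, 16.7 to 76.6) and 12.9% (18 of 140, 7.80 to 19.6). The share of each cell type that survived dissociation and the sort was not measured.

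**Figure D1:**
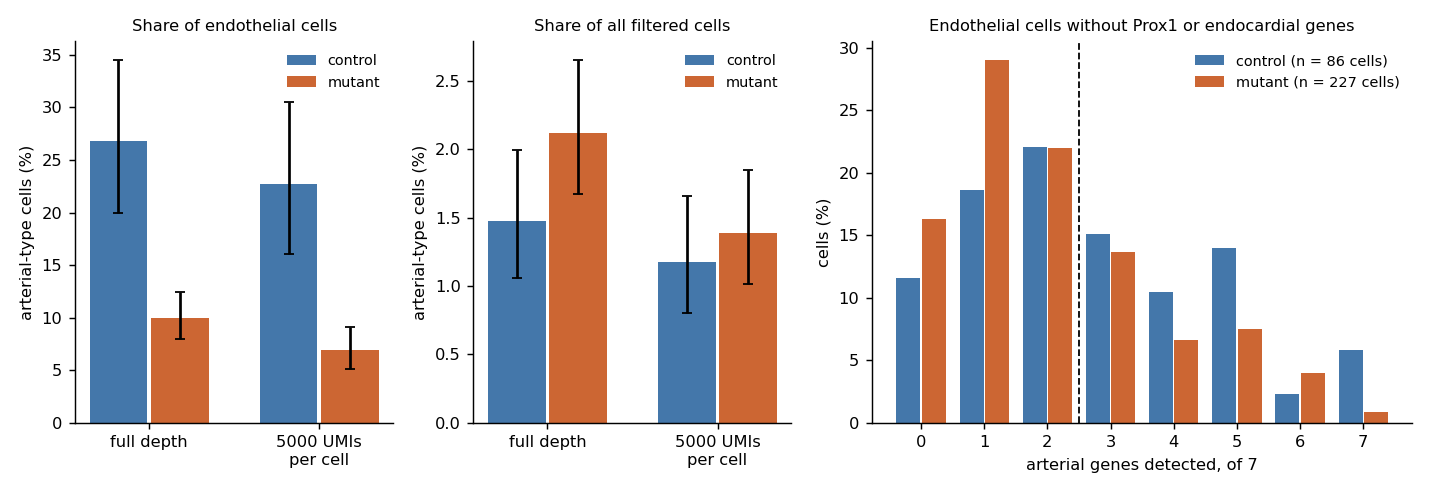
Arterial-type cells as a percentage of endothelial cells and of all kept cells in the control and mutant libraries, at full depth and after thinning to 5000 UMIs, with exact 95% intervals that cover counting error only. The share of the endothelium was higher in control (26.8%) than in mutant (10.0%), whereas the shares of all kept cells were 1.47% and 2.12%.

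The number of arterial genes detected per cell ran over the whole scale without a gap at the threshold. Among control arterial-type and remaining cells, 10, 16 and 19 cells had 0, 1 and 2 of the 7 genes, and 13, 9, 12, 2 and 5 cells had 3, 4, 5, 6 and 7. Among mutant cells these numbers were 37, 66 and 50 below the threshold, and 31, 15, 17, 9 and 2 from 3 to 7 genes. Just outside the threshold, at 2 genes, the summed level of 27 other arterial genes was 1798 CPM in control and 2733 in mutant cells. Just inside it, at 3 genes, it was 2302 and 2880, and at 5 to 7 genes it reached 5908 and 5716. The members with 3 genes were thus closer to the cells outside the rule than to the members with 5 or more.

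The 20 endothelial genes that the rule did not use, among them Kdr, Erg and Cldn5, summed to 6696 CPM in control and 5949 in mutant members, against 149.6 and 189 in non-endothelial cells. Of the 7 genes of the rule, Sox17 and Efnb2 were detected most widely. Sox17 had a UMI in 87.8% of control and 93.2% of mutant members, and Efnb2 in 92.7% and 85.1%. Dll4 was detected in 78.0% and 70.3% of members, against 0.95% and 1.09% of non-endothelial cells, whose median depths were 20415 and 16604 UMIs. Gja4 was found in 73.2% and 51.4% of members, against 0.84% and 1.64% of non-endothelial cells. Gja5 was in 31.7% and 27.0%, and Cxcr4 in 34.1% and 23.0%. Hey1 was in 46.3% and 63.5% of members. Outside the endothelium, Hey1 was detected in 26.1% and 34.8% of cells and Efnb2 in 38.1% and 49.2%, so these 2 genes were not restricted to endothelial cells, whereas Sox17 was in 0.53% and 0.91%.

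Arterial genes that the rule did not use were also higher in the members than in the remaining endothelial cells, in both libraries. Of 27 such genes, 25 had at least 20 UMIs over both sums in each library. In control, 24 of 25 were higher in the members, with a median log2 ratio of 1.44, and 20 of the 24 that also passed a level filter were at least 2-fold higher. In mutant, 25 of 25 were higher, with a median of 1.29, and 13 of 24 were at least 2-fold higher. Over all genes tested, 4.97% were at least 2-fold higher and 4.2% at least 2-fold lower in control, and 3.79% and 3.29% in mutant. The medians of all genes were 0.01 and -0.01. These genes are part of the arterial programme that the rule selects, and no test was made on them.

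Named genes followed that pattern, with wide differences in size between the libraries. Bmx, a Tec-family kinase of arterial endothelium, was higher in members by log2 ratios of 4.83 in control and 2.74 in mutant. Hey2, a Notch target, was higher by 4.22 and 3.07, and Unc5b, a netrin receptor of arterial and tip cells, by 3.59 and 2.54. Sema3g, an arterial semaphorin, differed alike in the libraries, at 2.88 and 2.80. The Notch ligand Jag1 was at 2.21 and 1.59 and the receptor Notch4 at 1.29 and 1.46. Larger gaps between the libraries were seen for Fbln5, an elastic fibre glycoprotein, at 4.70 and 2.14, and for Cxcl12, the ligand of Cxcr4, at 2.64 and 0.97. Mecom, a transcription factor of arterial and blood-forming endothelium, was at 1.95 and 0.55. The lymphangiogenic factor Vegfc went the other way, at 0.25 in control and 2.15 in mutant. Whether the 2 libraries differed in these ratios was not tested.

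**Figure D2:**
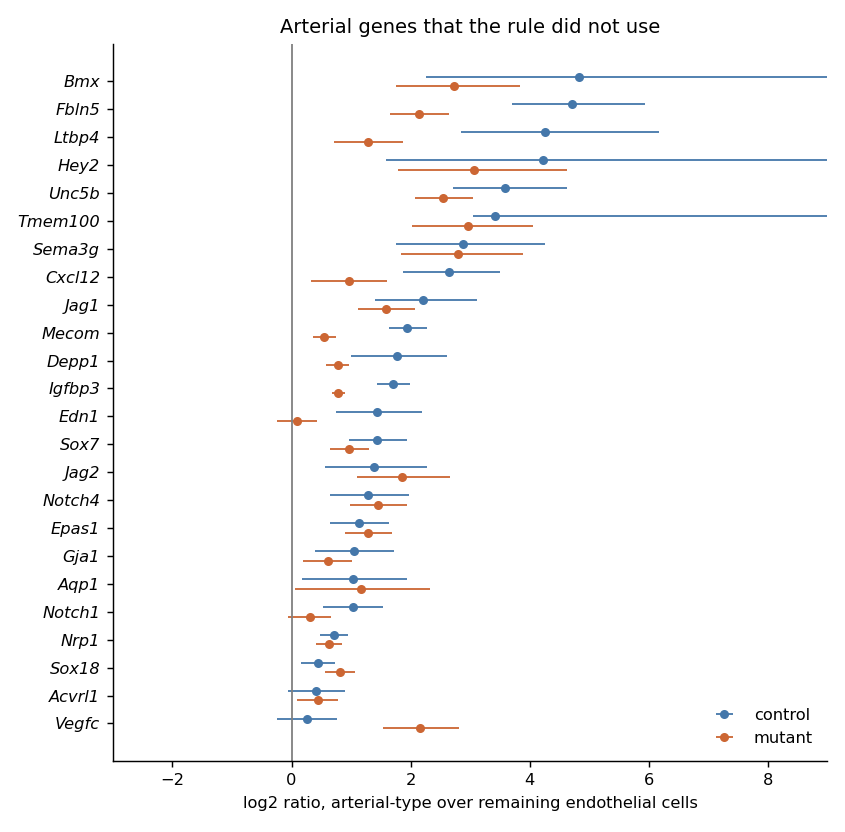
Log2 ratio of arterial-type over remaining endothelial cells for each arterial gene that the rule did not use, in the control and mutant libraries, with counting intervals. Nearly all points lie above 0, and the medians were 1.44 in control and 1.29 in mutant.

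Of the venous genes, 3 of 9 measured were higher in control members than in remaining cells (median -0.06) and 1 of 10 in mutant members (median -0.58). Among those that passed the level filter, 2 of 8 in control were at least 2-fold higher and 3 at least 2-fold lower, beside 4.97% and 4.2% of all genes tested, and in mutant 0 of 9 and 4, beside 3.79% and 3.29%. Nr2f2, the transcription factor that maintains vein identity, had log2 ratios of arterial-type over remaining cells of -1.39 in control and -0.64 in mutant. Aplnr, the apelin receptor of veins and sprouting capillaries, was at -1.08 and -1.001, and the semaphorin and VEGF-C co-receptor Nrp2 at -0.70 and -1.05. The venous gene higher in both libraries was Vwf, the clotting factor carrier, at 1.90 and 0.19. Genes of the cell cycle were lower as a list, with 3 of 25 higher in control members (median -0.36) and 5 of 25 in mutant members (median -0.52). Of all genes measured, 4569 of 8918 were higher in control and 5111 of 10490 in mutant. At least 2-fold lower were 1 of the 25 in control and 7 in mutant, beside 4.2% and 3.29% of all genes tested, and 0 were at least 2-fold higher. The control count was thus near the share of all genes. Notch pathway genes had medians of 0.62 and 0.58, but the list holds Dll4 and Hey1, on which the members were selected.

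Genes of elastic artery walls were higher in the members, with 12 of 13 higher in control (median 0.83) and 12 of 16 in mutant (median 1.29). Of all genes measured, 4569 of 8918 were higher in control and 5111 of 10490 in mutant. At least 2-fold higher were 6 of 12 that passed the level filter in control and 9 of 14 in mutant. Of all genes tested, 4.97% and 3.79% were at least 2-fold higher. Among all genes, the rule for the largest difference seen in both libraries named Pcsk5, a proprotein convertase, at 4.30 in control and 3.98 in mutant. It also named Spock2, a matrix proteoglycan, at 2.28 and 3.14, with 48 of its 87 control and 33 of its 54 mutant UMIs in 1 cell each. Ptp4a3, a phosphatase of VEGF signalling, was at 1.89 and 2.24. Eln, which encodes elastin, was at 6.85 and 2.11, and the matrix gene Fbln2 at 2.08 and 1.67. Sat1, which acetylates polyamines, was at 2.61 and 1.91, the sodium-calcium exchanger Slc8a1 at 1.65 and 2.44, the transcription factor Sox6 at 4.32 and 1.53, and Ccdc85a at 1.33 and 2.29. Unc5b and Fbln5 were named as well. The last, the adult beta-globin gene Hbb-bs, was at 3.33 and 2.15, with 99 of its 113 control UMIs in 1 cell, and its reads may be shared with near-identical globin copies. In 1 cell each lay 58 of the 155 mutant Pcsk5 UMIs, 49 of the 112 control Sox6 UMIs, 104 of the 336 control Sat1 UMIs and 70 of the 214 mutant Ptp4a3 UMIs. Eln, Fbln5, Fbln2, Slc8a1 and Ccdc85a also had over 25% of their UMIs in 1 cell in at least 1 library. In all, 27 genes met the rule in the higher direction and 10 in the lower.

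In the lower direction the same rule named 8 genes. Nkain2, which encodes a protein that binds the sodium pump, was at -2.51 in control and -2.15 in mutant, and its relative Nkain3 at -3.03 and -1.57. The protocadherin Pcdh7 was at -1.90 and -2.05, the synaptic adhesion gene Nrxn3 at -3.22 and -1.65, and the calcium channel subunit Cacna2d1 at -3.25 and -1.64. Crabp1, a retinoic acid binding protein, had no UMI in control members, so its control value is a bound against a floor of 3 UMIs, and it was at -2.58 in mutant. The guidance gene Flrt2 was at -1.32 and -1.20, and Ralgapa2, a GTPase activator, at -1.36 and -1.19.

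The members were not uniform, and Gja5 and Cxcr4 were detected in different combinations. Of the control members, 5 had Gja5 without Cxcr4, 6 had Cxcr4 without Gja5, 8 had both and 22 had neither. Of the mutant members, these numbers were 16, 13, 4 and 41. Median depths were 7537, 19516, 20810.5 and 23564 UMIs in control and 6542.5, 12759, 22667 and 16055 in mutant, so cells with Gja5 alone were the shallowest in both. Elastin transcripts were concentrated in the cells with Gja5 alone. These cells held 560 of the 776 Eln UMIs of control members (72.2%, in 4 of 5 cells) and 103 of 212 in mutant members (48.6%, in 9 of 16 cells). Among the cells with neither gene, 207 of 208 control Eln UMIs and 73 of 107 mutant Eln UMIs came from 1 cell each. Fbln5 was distributed likewise, with 73.9% of its control UMIs and 70.0% of its mutant UMIs in the cells with Gja5 alone.

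Unc5b and Aplnr were distributed differently over these cells. Unc5b was highest in the cells with both Gja5 and Cxcr4, at 577 CPM in control and 381 in mutant, and had a UMI in 8 of 8 and 4 of 4 of those cells. Aplnr was nearly absent from cells with Gja5, which held 4 of its 246 control UMIs and 2 of its 93 mutant UMIs. In control, 47 of 118924 UMIs in cells with Cxcr4 alone and 195 of 522888 in cells with neither gene were from Aplnr, and in mutant 5 of 166661 and 86 of 686573. Eln lies at chr5:134702593-134747323 and Fbln5 at chr12:101746565-101819055, both on the minus strand, while Aplnr lies at chr2:85136225-85139923 on the plus strand and Unc5b at chr10:60762593-60831581 on the minus strand. The subsets were small, and 4 mutant cells carried both genes.

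Between the genotypes, the connexin genes of the rule were lower in mutant members, while the counting intervals of Hey1, Dll4 and Sox17 included no difference. Gja4 was at 419 CPM in control and 238 in mutant members, a log2 ratio of mutant over control of -0.82 (interval -1.05 to -0.58). Gja5 was at 108 and 45.4, a log2 ratio of -1.25 (-1.77 to -0.74). Efnb2 was at 292 and 194, a log2 ratio of -0.59 (-0.86 to -0.32), and Cxcr4 at 43.1 and 23.6, a log2 ratio of -0.87 (-1.65 to -0.11). Sox17 was at 224 and 208, with a log2 ratio of -0.11 (-0.39 to 0.18). Dll4 was at 137 and 122 (-0.16, interval -0.53 to 0.21), and Hey1 at 85.1 and 101 (0.25, interval -0.19 to 0.70). Because each gene helped to choose the members, each was also read in cells that met the threshold on the other 6 genes alone. The log2 ratios were then -1.04 for Gja4 (-1.29 to -0.80), -1.31 for Gja5 (-1.85 to -0.79), -0.59 for Efnb2 (-0.91 to -0.27) and -0.92 for Cxcr4 (-1.72 to -0.15). No test between the genotypes was possible, and after thinning to 5000 UMIs the Efnb2 ratio was 0.041. In Prox1-detected cells the ratios were -1.97 for Gja4, -2.78 for Gja5, -0.91 for Efnb2 and -4.02 for Cxcr4 (4 mutant UMIs). In endocardial-gene cells they were -1.26, -1.47, -1.03 and -1.34. In these classes Dll4 was at -1.57 and -1.10, Hey1 at -1.55 and -0.66 and Sox17 at 0.47 and -0.75. In remaining cells, chosen on these genes, Gja4 was at 0.72, Hey1 at 1.17, Dll4 at 2.51, Sox17 at 0.093 and Efnb2 at 0.54. The lower connexin values were thus not particular to arterial-type cells.

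In the same cells chosen on the other 6 genes, each gene was higher than in the cells with fewer than 3 of those 6 genes, in both libraries. Those were other cells for each gene, 45 to 57 in control and 155 to 182 in mutant. The control ratios were 4.28 for Gja4, 5.33 for Gja5 (3.43 to 8.39, with 2 UMIs in the cells below the threshold), 3.61 for Hey1, 3.01 for Dll4, 1.25 for Sox17 and 1.63 for Efnb2. The mutant ratios were 2.90, 3.76, 2.61, 1.696, 0.94 and 1.23, and 4.44 for Cxcr4 (2.44 to 7.56, with 2 UMIs in the cells below the threshold). For Cxcr4 in control, the cells below the threshold had no UMI, and the ratio was at least 3.42 against a floor of 3 UMIs. Sox17 differed least, and the cells below the threshold on the other 6 genes themselves carried it at 107 CPM in control and 111 in mutant.

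The arterial genes outside the rule showed no common direction between the genotypes. Of the 25 measured genes, 10 were higher and 15 lower in mutant members, with a median log2 ratio of -0.28 beside -0.08 over the 9476 genes measured. At least 2-fold differences were counted for 3 of 25 in each direction, against 7.04% of 8082 genes tested in the higher and 6.42% in the lower direction. The higher ones were Depp1, a FOXO-regulated gene, from 82.7 to 400 CPM (2.27, interval 1.91 to 2.66), Igfbp3, an insulin-like growth factor binding protein, from 593 to 1226 (1.05, 0.90 to 1.20), and the chaperone Clu (2.35). The lower ones were Cxcl12 from 134 to 41.9 (-1.68, -2.20 to -1.18), the water channel Aqp1 (-1.57) and Fbln5 from 280 to 113 (-1.30, -1.63 to -0.99). Depp1 was also higher in mutant remaining cells, by 3.27, and in mutant non-endothelial cells, by 3.33. With the rule applied to cells thinned to 5000 UMIs, the median was 0.25 in the thinned counts and 0.20 in the full-depth counts of the same cells, in place of -0.28. The summed level of the 27 genes was 4047 CPM in control and 4079 in mutant members, to which Igfbp3 contributed most.

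HIF targets summed over the mutant members were higher than in control members across the list. Of 37 listed genes, 32 had at least 20 UMIs over both sums, all 32 were higher in mutant, and 29 of 32 were at least 2-fold higher, beside 7.04% of all genes tested. Their median log2 ratio was 3.04. In the full-depth counts of the cells that met the rule at 5000 UMIs, the HIF median was 2.10. Since sparse genes can enter such a list through the mutant library alone, the list was also read over the 16 genes with at least 20 UMIs in control members. All 16 were higher, with a median of 1.97 beside -0.16 over the 6851 genes tested that met the same condition. The summed level of the 37 genes was 1967 CPM in control and 8965 in mutant members. Of the 5 genes under 20 UMIs, Lox was at 12 UMIs in control and 7 in mutant. The list included known HIF targets from other tissues and was set with earlier results of these data in view.

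The HIF targets covered oxygen sensing, mitophagy, transport and secreted factors. Bnip3, which directs mitochondria to autophagy, was at 15.6 CPM in control and 340 in mutant, a log2 ratio of 4.45 (3.66 to 5.37), and was detected in 9 of 41 and 53 of 74 cells. Egln3, a prolyl hydroxylase that marks HIF for decay, went from 11.98 to 241 (4.33, 3.43 to 5.41), with 8 and 53 cells. Slc16a3, the lactate exporter, went from 7.19 to 246 (5.10, 3.96 to 6.56), in 5 and 51 cells. These genes were sparse in control members and detected in most mutant members, although the mutant members were shallower. Slc2a3, a glucose transporter, had 1 UMI in control members against 171 CPM in mutant (7.16, 4.66 to 12.47), in 29 cells. Slc2a1, the main glucose transporter of endothelium, was already at 319 in control and reached 890 in mutant (1.48). Adm, which encodes the vasoactive peptide adrenomedullin, went from 18.0 to 244 (3.77), with 11 of its 15 control UMIs in 1 cell and a ratio of 5.49 without the top cells, and Vegfa from 14.4 to 192 (3.74, 2.91 to 4.71).

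Ddit4, an inhibitor of mTOR complex 1, was at 39.5 CPM in control and 500.1 in mutant members (3.66), and Ero1l, an oxidase of protein folding, at 28.7 and 366 (3.67). Ndrg1, a stress-responsive gene, was higher by 2.95, and the collagen hydroxylase P4ha1 by 2.93. The smallest ratios among the 32 belonged to Bnip3l (0.73), Plod1 (0.86) and Egln1 (0.89), which were widely detected in control members. Slc16a3 lies at chr11:120948480-120960868 on the plus strand and Slc2a3 at chr6:122727809-122801640 on the minus strand. In the remaining endothelial cells the same list had a median of 2.75, with 32 of 32 genes higher and 28 of 32 at least 2-fold higher, where 6.59% of 8075 genes tested were at least 2-fold higher and 6.18% at least 2-fold lower. In non-endothelial cells its median was 1.33. The higher level of these genes in the mutant library thus extended to the other cells sorted.

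HIF binds DNA at sites with the core ACGTG or, as a variant, GCGTG. The 250 bases upstream of each RefSeq start were therefore searched for both cores on both strands. The 250 bases upstream of the RefSeq start (build GRCm38.p6) are given for 4 HIF targets with large ratios, as examples of windows that hold ACGTG, written 5′ to 3′ on the strand of the gene with every match to ACGTG or GCGTG, on either strand, in capitals. They lie at chr7:138909507-138909756 (minus strand) for Bnip3, chr12:54203875-54204124 (minus) for Egln3, chr11:120948817-120949066 (plus) for Slc16a3 and chr10:59951771-59952020 (minus) for Ddit4. The window of Slc16a3 lies within the GENCODE gene body given above, which begins at an upstream start.
Bnip3: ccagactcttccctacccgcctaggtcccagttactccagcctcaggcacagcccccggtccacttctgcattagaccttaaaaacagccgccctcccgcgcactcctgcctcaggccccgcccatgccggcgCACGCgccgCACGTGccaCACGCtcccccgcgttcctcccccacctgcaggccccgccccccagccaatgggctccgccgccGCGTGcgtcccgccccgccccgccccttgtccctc
Egln3: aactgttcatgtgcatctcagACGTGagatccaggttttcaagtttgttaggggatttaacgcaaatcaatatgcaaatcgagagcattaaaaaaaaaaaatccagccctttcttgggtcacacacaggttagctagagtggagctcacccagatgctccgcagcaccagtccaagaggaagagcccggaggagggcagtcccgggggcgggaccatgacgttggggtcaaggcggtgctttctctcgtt
Slc16a3: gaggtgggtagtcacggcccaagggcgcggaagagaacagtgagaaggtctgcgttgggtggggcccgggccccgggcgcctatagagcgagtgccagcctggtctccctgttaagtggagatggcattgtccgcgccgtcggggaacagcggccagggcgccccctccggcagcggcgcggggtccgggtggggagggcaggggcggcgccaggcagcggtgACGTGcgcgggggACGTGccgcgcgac
Ddit4: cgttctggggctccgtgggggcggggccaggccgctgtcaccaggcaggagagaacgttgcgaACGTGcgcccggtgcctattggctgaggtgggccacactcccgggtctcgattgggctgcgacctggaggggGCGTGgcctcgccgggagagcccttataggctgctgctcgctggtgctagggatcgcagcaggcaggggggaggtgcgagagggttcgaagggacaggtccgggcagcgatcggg
Bnip3 held 2 matches to ACGTG that overlap as CACGTG, read once on each strand, and 3 to GCGTG. Slc16a3 held 2 matches to ACGTG, Egln3 held 1, and Ddit4 held 1 of each core. A match is a description of the letters and does not show that a factor binds there. Windows were found for 29 of the 37 HIF targets, in 42 windows of 250 upstream bases because some genes have several starts. ACGTG was present in 21 of 42 (50%) and either core in 33 (78.6%). Of all 32851 windows of the same length, 16.6% held ACGTG and 38.6% held either core. For glycolysis genes, 11 of 30 windows (36.7%) held ACGTG and 23 (76.7%) held either. For arterial genes outside the rule, 0 of 24 windows held ACGTG and 13 (54.2%) held GCGTG. The variant core was in 28.2% of all windows, 46.7% of the glycolysis windows and 61.9% of the HIF target windows.

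Glycolysis genes were higher in mutant members by less than the HIF list, and the size of the difference depended on the depth at which the rule was applied. Of 19 listed genes, 18 were measured, 17 of them higher, with a median log2 ratio of 1.64, and 13 of the 17 that passed the level filter were at least 2-fold higher, beside 7.04% of all genes tested. The median was 0.44 in counts thinned to 5000 UMIs with the rule applied at that depth, and 0.42 in the members that met the rule at both depths, in which genes induced by dissociation were at -0.50. Over the 14 genes with at least 20 UMIs in control members, 13 were higher, with a median of 1.52. The lower one was Pgm2, which interconverts sugar phosphates, at -0.25. Pgk1, the first ATP-generating enzyme of the pathway, was at 194 CPM in control and 998 in mutant members (2.36). Ldha, which makes lactate from pyruvate, was at 562 and 1894 (1.75). Tpi1 was higher by 2.08, Aldoa by 1.81, Gapdh by 1.501 and Pkm by 1.00. The hexokinase gene Hk2 had no UMI in control members and 62.0 CPM in mutant, a log2 ratio of at least 4.11 against a floor of 3 UMIs, and Eno2 likewise of at least 3.48. In remaining endothelial cells the list had a median of 1.34, and in non-endothelial cells of 1.05.

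**Figure D3:**
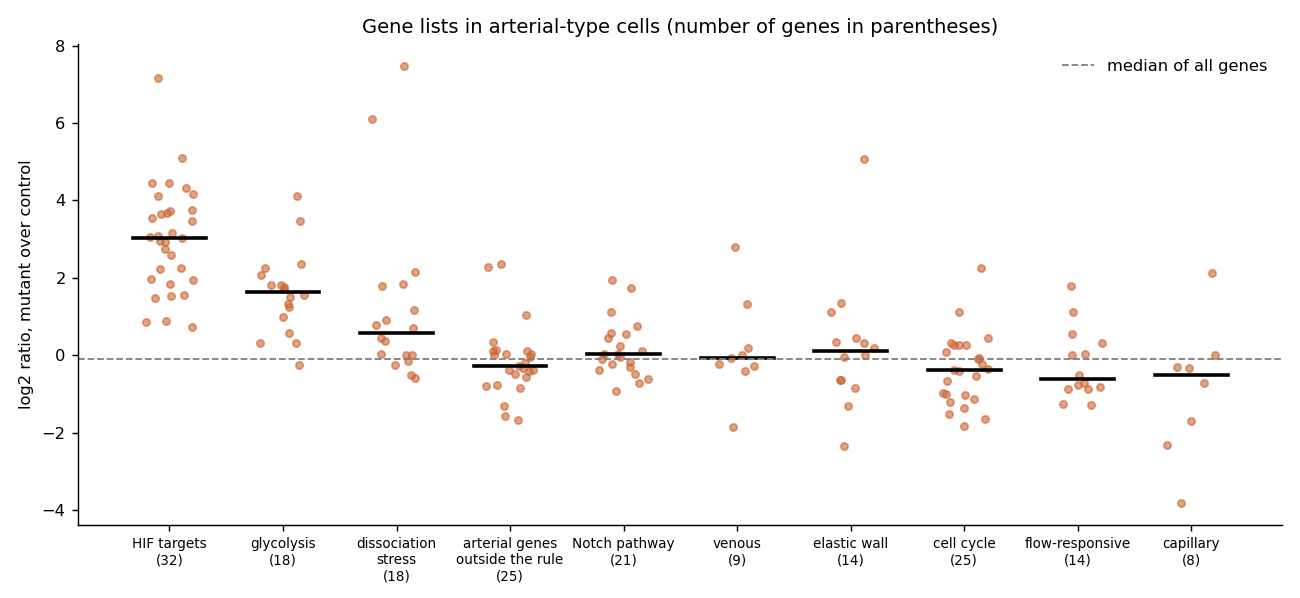
Log2 ratio of mutant over control in arterial-type cells for the gene lists shown. Every measured gene is a point, a bar marks each list median, and a dashed line marks the median of all genes. HIF targets (3.04) and glycolysis genes (1.64) stand highest among the vascular and metabolic lists in arterial-type cells, and the arterial genes outside the rule lie at -0.28. The plotted glycolysis median was 0.44 in counts thinned to 5000 UMIs with the rule applied at that depth.

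Cell by cell, the HIF list separated most but not all mutant members from the control members. Control members had a median HIF target level of 1728 CPM, with quartiles of 1522 and 2165 and a maximum of 5788. Mutant members had a median of 7115, with quartiles of 4059 and 11117 and a maximum of 19482. Of the 74 mutant members, 44 lay above the highest control member, and 3 lay at or below the control median. The glycolysis list overlapped more. Its median was 4045 in control (quartiles 2531 and 5049, maximum 8424) and 8730 in mutant members (quartiles 4812 and 14622, maximum 30447). Above the highest control member there were 40 mutant members, and 16 were at or below the control median.

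**Figure D4:**
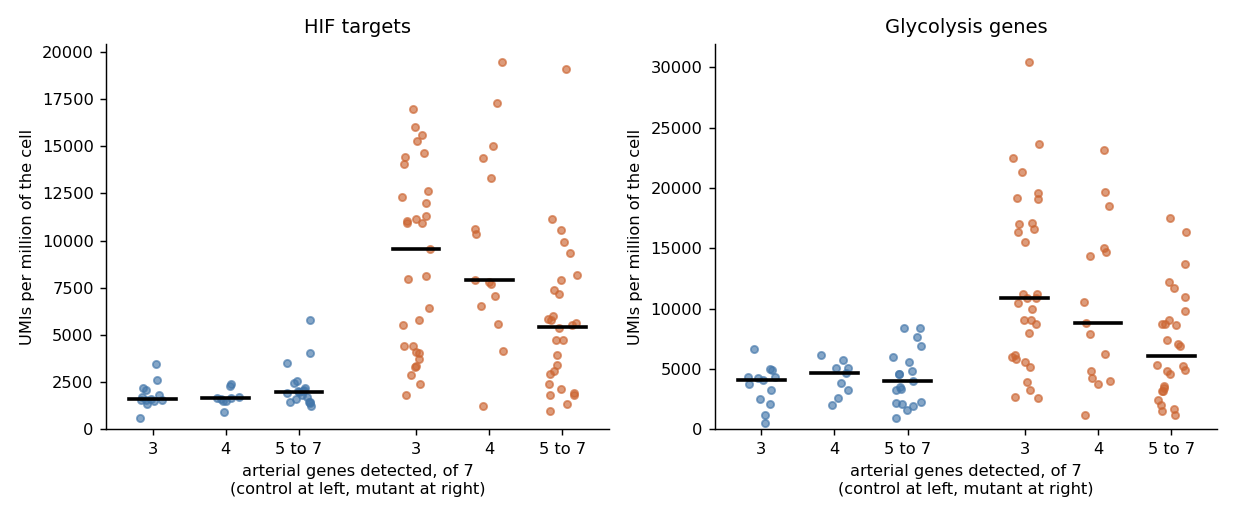
Summed level of HIF targets and of glycolysis genes in each arterial-type cell, in CPM of that cell's UMIs. Cells are grouped by library and by 3, 4 or 5 to 7 arterial genes detected, with the median of each group marked. Mutant members spread from the control range upwards. Over all members, the medians were 7115 in mutant against 1728 in control for HIF targets and 8730 against 4045 for glycolysis genes.

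Within the mutant members, the per-cell medians of both lists were lower in the cells in which more arterial genes were detected. HIF targets had median levels of 9543, 7927 and 5439 CPM in mutant members with 3, 4 and 5 to 7 of the 7 genes, and glycolysis genes 10845, 8805 and 6106. In control members the HIF medians were 1618, 1640 and 2002, and the glycolysis medians were 4045, 4696 and 3996, with no such order. The summed HIF level did not follow this order, at 10211, 10611 and 6481 CPM. Below the threshold, mutant cells with 0, 1 and 2 arterial genes had HIF medians in the opposite order, of 4580, 5834 and 8089. Median depths of the mutant members were 16055, 9724 and 11815.5 UMIs. These are values from single libraries, and no trend was tested.

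The size of the glycolysis difference depended on which cells met the rule. When cells were thinned to 5000 UMIs before the rule was applied, 21 of the 41 control and 27 of the 74 mutant members still met it. With the rule applied at that depth, the median glycolysis ratio was 0.44 in the thinned counts and 0.40 in the full-depth counts of the same cells, in place of 1.64. The values that follow are from full-depth counts. In the cells that met the rule at both depths it was 0.42, with summed levels of 4799 and 5901 CPM, while in the members that met the rule at full depth alone it was 1.82, with 3976 and 14836. The HIF median was 2.10 in all cells that met the rule at 5000 UMIs, in place of 3.04. It was 2.55 in the cells that met the rule at both depths and 2.83 in those at full depth alone. The arterial genes outside the rule had medians of 0.37 and -0.59 in the same sets. Genes induced by dissociation, a sign of cell stress, had medians of -0.50 in the cells at both depths and 1.01 in those at full depth alone. They thus moved with the glycolysis ratio over these sets, and their part in it was not tested. Thinning also brought in 11 control and 19 mutant cells, of which 5 and 2 had Prox1 and 5 and 17 had endocardial genes at full depth, so the exclusions were less complete at that depth.

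By the rule for single genes, the 12 largest ratios in the higher direction mixed genes spread over many mutant members with genes from 1 cell. The heat-shock genes Hspa1b and Hspa1a were higher by 7.48 and 6.11, and in non-endothelial cells by 3.47 and 3.09. They are near-identical copies whose reads may be split between them, and Hspa1b belongs to the list of genes induced by dissociation. Nts, which encodes the peptide neurotensin and lies at chr10:102481756-102490486, had no UMI in control members and 167 CPM in 20 mutant members, a log2 ratio of at least 5.54. Slc2a3 and Slc16a3 were described above. The embryonic globin gene Hbb-y was higher by 6.43, with 53.2% of its mutant UMIs in 1 cell. The liver genes Afp, Alb, Apoa2, Ttr and Rbp4 had no UMI in control members, and 98.4%, 99.3%, 96.9%, 99.5% and 98.9% of their mutant UMIs came from 1 cell each. The noncoding Gm16222 had all its mutant UMIs in 1 cell. Of the 139 genes that met the rule in this direction, 18 had over 25% of their UMIs in 1 cell. Leaving those out, a choice made after the values were seen, added Bnip3, Egln3, Selenbp1 (4.17), Adm, Vegfa, Ero1l and Ddit4 to the leading genes. Selenbp1 was at -0.11 in thinned counts with the rule applied to thinned cells.

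The 12 largest ratios in the lower direction included genes of capillary and general endothelium. Rgcc, a cell cycle regulator of capillary endothelium at chr14:79288756-79301645, was at 199 CPM in control and 40.1 in mutant members (-2.31, -2.81 to -1.83). The protocadherin Pcdh17 was at -2.27, the endothelial lectin receptor Clec1a at -2.24, and Cavin2, a coat protein of caveolae, at -2.10. The elastin gene Eln was at 930 and 185 (-2.33, -2.55 to -2.11), in 8 control and 13 mutant members, with 28.2% of its control UMIs in 1 cell. Dynlt1b, a dynein light chain, was at -2.38 (-2.87 to -1.92), and the splicing factor Cwc22 at -1.88. Both were also lower in mutant non-endothelial cells, at -1.57 and -1.53. C130074G19Rik, Ccdc85a and Nckap5 were at -2.21, -2.09 and -2.03, but Ccdc85a was at 1.21 in thinned counts with the rule applied to thinned cells. The other two, Jarid2 (-2.63) and Hbb-bs (-1.92), had 86.7% and 87.6% of their control UMIs in 1 cell, and without the top cells their log2 ratios were 0.14 and 0.13. In non-endothelial cells, mutant was also lower for Cavin2 (-2.39), Clec1a (-1.88, at 0.33 and 0.091 CPM), Eln (-1.68), Nckap5 (-0.71), Ccdc85a (-0.50) and Jarid2 (-0.046). There it was higher for Rgcc, Pcdh17, C130074G19Rik and Hbb-bs, at 0.21, 0.57, 1.63 and 1.13. In remaining endothelial cells, mutant was also lower for Nckap5 (-3.94), C130074G19Rik (-3.07), Ccdc85a (-3.05), Rgcc (-2.57), Dynlt1b (-2.44) and Pcdh17 (-2.11). The same held for Clec1a (-1.91), Cavin2 (-1.68), Cwc22 (-1.45) and Hbb-bs (-0.74, with an interval that included no difference). In those cells mutant was higher for Eln (2.41) and Jarid2 (0.71). Of the 128 genes in this direction, 13 had over 25% of their UMIs in 1 cell. Leaving those out added Aplnr (-1.86), the transcription factor Dach1, which promotes arterial growth, (-1.83) and the basement membrane collagen Col15a1 (-1.77). In remaining endothelial cells their ratios were -1.94, -2.46 and -2.24.

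**Figure D5:**
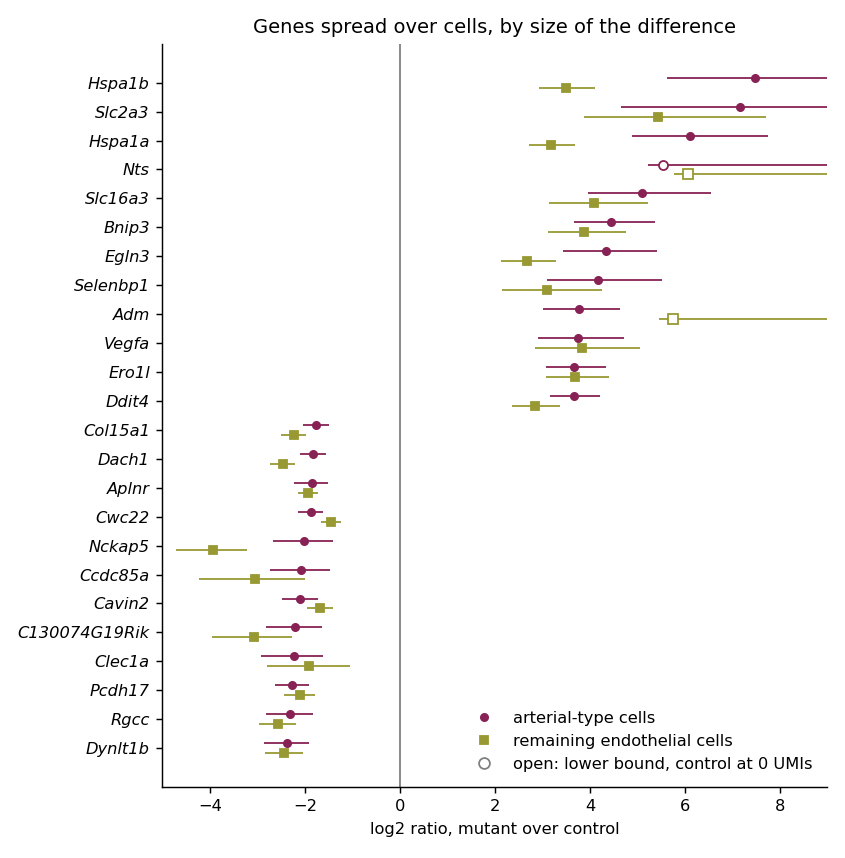
Log2 ratio of mutant over control in arterial-type cells for the named genes with at most 25% of their UMIs in 1 cell, with counting intervals. Remaining endothelial cells are shown for comparison. Open markers are bounds for genes with no UMI in the control cells of that class, such as Nts in members (at least 5.54). In arterial-type cells the lower genes range from -2.38 for Dynlt1b to -1.77 for Col15a1.

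Capillary genes were lower in mutant members for 7 of 8 measured genes (median -0.52), where 5357 of all 9476 measured genes were lower. Of the 7 that passed the level filter, 3 were at least 2-fold lower and 0 at least 2-fold higher, beside 6.42% and 7.04% of all genes tested. The fatty acid transporter Cd36 was at -3.81, Gpihbp1, which anchors lipoprotein lipase, at -1.68, and Kdr, the main VEGF-A receptor, at -0.32. Genes that respond to blood flow had a median of -0.61 over 14 genes, of which 6 were higher, and 2 of the 13 that passed the level filter were at least 2-fold higher and 2 at least 2-fold lower, beside 7.04% and 6.42% of all genes tested. The 2 higher were the phosphatase Dusp5 (1.78) and the cell cycle inhibitor Cdkn1b (1.13). Klf2 and Klf4, transcription factors induced by laminar flow, were at -0.71 and -0.86, the nitric oxide synthase Nos3 at -0.50, the scaffold gene Slc9a3r2 at -1.27 and the caveolar gene Cav1 at -0.78, and the metalloprotease inhibitor Timp3 at 0.56. That list holds Gja4 and Gja5, on which members were selected. Basement membrane genes were lower for 12 of 14 (median -0.31), but 1 of the 13 that passed the level filter was at least 2-fold lower and 1 at least 2-fold higher, with Col15a1 at -1.77, Sparc at -0.63 and Col4a1 at -0.49, while fibronectin, Fn1, was at 1.28. Endothelial genes outside the rule were higher in 5 of 20 (median -0.26), and included Lmo2 at -1.60, the tight junction gene Cldn5 at -1.09 and the adrenomedullin receptor Calcrl at 1.02.

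Signalling and guidance lists held single genes that stood far from their medians. In the Notch pathway the median was 0.03 over 21 genes, with the target Hes1 at 1.74 (1.34 to 2.17), the coactivator Maml3 at 1.12 and the glycosyltransferase Mfng at -0.91. Venous genes had a median of -0.07 over 9 genes, with Nr2f2 at 1.32 (0.91 to 1.75), the endocytic adaptor Dab2 at 2.79 and Aplnr at -1.86 (-2.22 to -1.51). BMP and TGF-beta genes had a median of 0.02 over 19 genes, in which the inhibitor Smad7 was at 1.83 and Id2 at 1.90. Genes of PI3K and FOXO signalling had a median of -0.21 over 23 genes, with Foxo3 at 2.11, Mtor at -1.29 and Akt1 at -1.01. Guidance genes were at -0.26 over 18 genes, and the ligands Slit3 and Slit2 at 1.73 and 1.62. The guidance list holds Efnb2, on which members were selected. Tip cell genes were at 0.39 over 14 genes, but at -0.0044 over the 11 with at least 20 UMIs in control members, of which 5 were higher and 6 lower. They included the VEGF family ligand Pgf at 3.81, the potassium channel subunit Kcne3 at 1.95, Esm1 at 1.44, the decoy receptor Flt1 at 0.68 and Apln at -0.35. Elastic wall genes had a median of 0.10 over 14 genes. Over the 12 with at least 20 UMIs in control members it was -0.018, with 6 higher and 6 lower. The 16 listed elastic wall genes summed to 2101 CPM in control and 1229 in mutant members.

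Most cell cycle genes were lower in mutant members. Of 25 measured cell cycle genes, 8 were higher and 17 lower (median -0.38), and 2 and 7 of the 24 that passed the level filter were at least 2-fold higher and lower, beside 7.04% and 6.42% of all genes tested. In full-depth counts the median was -0.15 in the cells that met the rule at 5000 UMIs and -1.38 in the members that met it at both depths. Mki67 was at -1.64, Top2a at -1.12 and the mitotic cyclin Ccnb1 at -1.82, while the inhibitors Cdkn1a and Cdkn1b were at 2.25 and 1.13 and the G1 cyclin Ccnd1 at -1.51. A UMI of Mki67 or Top2a was present in 56.1% of control and 41.9% of mutant members, and in 68.9% and 63.4% of remaining cells. After thinning, these shares were 37.5% and 37.0% of members and 64.2% and 50.5% of remaining cells. The thinned shares of the members had wide, overlapping intervals, of 21.1 to 56.3 in control and 23.2 to 52.5 in mutant.

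Markers of other cell types were present in the members at levels that differed between the libraries. The hepatoblast list summed to 1.2 CPM in control and 1438 in mutant members, of which 98.5% lay in 1 cell. Mutant non-endothelial cells carried 1414, and mutant remaining cells 2182. Neuronal markers were at 35.9 and 235, led in mutant by Tubb3, with 51.7% of the mutant UMIs in 1 cell. Erythroid markers were at 195 and 363, with 87.1% and 46.4% in 1 cell. Mural markers were at 222 and 366, led by the smooth muscle actin Acta2 at 135 and 213, with Rgs5 and Pdgfrb at 0 in control members and 74.6% of the control UMIs in 1 cell. Mesenchymal markers were at 201 and 110, with 81.5% and 26.2% in 1 cell, epithelial ones at 15.6 and 107, cardiomyocyte ones at 37.1 and 48.0, skeletal muscle ones at 69.5 and 164, and macrophage ones at 15.6 and 29.7. In mutant members, 1 cell held 49.6% of the epithelial UMIs, 1 held 33.0% of the skeletal muscle UMIs and 1 held 41.2% of the macrophage UMIs. Haemogenic markers were at 631 and 428, mostly from Mecom, against 191 and 205 in non-endothelial cells. Lymphatic ones were at 98.2 and 74.2 with Prox1 at 0 by the rule. Endocardial ones were at 207 and 226, against 76.9 and 70.4 in non-endothelial cells. Genes induced by dissociation were higher in 14 of 18 (median 0.57), with Hspa1b the largest at 7.48, Ier3 at 2.14 and Atf3 at 1.18, while Fos was at 0.02. Of all genes measured, 4119 of 9476 were higher. At least 2-fold higher were 6 of the 18 and at least 2-fold lower 0, beside 7.04% and 6.42% of all genes tested. The median of the dissociation genes was -0.32 in the full-depth counts of the cells that met the rule at 5000 UMIs. The part of these genes in the results above was not tested.

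The HIF and glycolysis differences were also read in cells matched for sex-linked transcripts. In members with Xist as the only sex-linked transcript, 38 control and 17 mutant cells, the median ratio was 2.60 for HIF targets and 1.21 for glycolysis genes. In all members they were 3.04 and 1.64. The part of the sex mix in these ratios was not tested.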

How the data were processed

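Single-cell 5′ libraries of eYFP+ cells were compared between 1 control and 1 mutant pool of 3 embryos each. The authors processed the reads with Cell Ranger 7.1.0 against mm10 and deposited, for each library, a filtered matrix of raw UMI counts for 32285 genes. The annotation release, and whether intronic reads were counted, are not given in the sources used here. All 2 libraries were used, and 0 columns were left unmapped. The members of the cell group and all gene lists were chosen with earlier results of these data known, so nothing here is independent support for them.

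Counts were summed over the cells of a class and given as counts per 1000000 UMIs of that sum (CPM). Where libraries or classes were compared, the log2 ratio carried an exact conditional binomial interval, levels an exact Poisson interval and shares a Clopper-Pearson interval, all at 95%. A sum with no UMI entered ratios at a floor of 3 UMIs, and such ratios are given as bounds. List medians used genes with at least 20 UMIs over both sums, and counts of at least 2-fold differences also required at least 20 CPM in 1 sum. With 1 library per genotype there was no test, and cells were not treated as replicates. The named genes were the 12 largest ratios in each direction between genotypes, with at least 100 CPM in 1 library and an interval beyond 1.5-fold, leaving out genes of the rule, mitochondrial, Xist and Y-linked genes. Between cell classes they were the 12 with the largest smaller ratio of the 2 libraries and the 8 with the lowest larger ratio, under the same limits. List members serve as examples.

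The code for the ratios was tested on simulated data with known ratios before use. Coordinates came from GENCODE vM21, where 417 of 417 genes were matched by identifier, and 40 identifiers share a symbol with another. Promoters came from RefSeq. Scrublet in scanpy 1.11.5, by its own threshold, called 0 control and 1 mutant barcode as doublets. Whether that threshold suited these data was not tested. Doublets were left in, and removing the 162 and 230 barcodes with the highest scores (3.6% and 4.29%) was an alternative. Other alternatives changed the threshold and genes of the rule, the filters on cells and genes, the depth and the scaling. Intervals used scipy 1.17.1 and pandas 2.3.3 with numpy 2.4.6 under Python 3.11.15, figures used matplotlib 3.10.9, and edgeR 4.0.16 in R 4.3.3 served only for a trimmed mean scaling.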

Additional observations from a re-analysis of the deposited data

Results flagged for a closer look

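Among 91 named genes and list members, 6 were lower in mutant than in control arterial-type cells and higher in mutant than in control remaining endothelial cells, with counting intervals on opposite sides of no difference. No count over all measured genes stands beside these 6, so they describe only the genes looked at. In each case the difference between the cell classes was not tested, because each genotype has 1 library, and the remaining cells were chosen for few arterial genes. The elastin gene Eln had a log2 ratio of mutant over control of -2.33 in arterial-type cells and 2.41 in remaining cells (interval 1.22 to 3.90), the latter from 6 control and 80 mutant UMIs. Fbln5, which binds elastin, was at -1.30 and 1.26, the latter from 8 and 48 UMIs. Ltbp4, a further gene of elastic fibre assembly, was at -0.84 and 2.13, the latter from 4 and 44 UMIs. The transcription factors Sox6 and Mecom were at -0.82 and 1.97 and at -0.55 and 0.85, with 5 and 49 and with 100 and 453 UMIs in remaining cells. Jarid2, a chromatin regulator, was at -2.63 and 0.71, but without its top cells the first ratio was 0.14.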

How the results depend on the processing

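The medians of HIF targets, glycolysis genes and arterial genes outside the rule were recomputed under 22 alternatives and the share of the endothelium under 17. The control share of the endothelium, 26.8%, was 39.2% with at least 2 and 18.3% with at least 4 arterial genes, 19.6% without Sox17 and 19.0% without Efnb2 in the rule, 36.7% among cells without Mki67 or Top2a, and 52.3% with Prox1-detected and endocardial-gene cells kept. The mutant share, 10.0%, was under the same alternatives 16.8%, 5.82%, 6.09%, 6.495%, 16.5% and 28.4%, and was 7.85% without Dll4, 6.94% in thinned cells and 6.97% in Xist-only cells. The HIF median ranged from 2.31 (those cells kept) to 3.15. The glycolysis median ranged from 0.44 (thinned cells) to 1.73. The median of arterial genes outside the rule, mutant over control, ranged from -0.54 (cells without Mki67 or Top2a) to 0.25 (thinned cells). For arterial-type over remaining cells it was 2.55 without Mki67 or Top2a in control, and in mutant 2.00 in thinned cells and 0.67 with those cells kept. The genes at least 2-fold higher (569) or lower (519) numbered together 322 at a minimum of 100 UMIs and 668 with those cells kept. Keeping those cells and leaving out the top cell of each gene were chosen after seeing the data.

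Of 796 values of 41 genes, 641 moved within counting error, 138 moved further and 17 changed sign. In thinned cells, Selenbp1 was at -0.11, Ccdc85a at 1.21, Efnb2 at 0.041, Jarid2 at 0.19 and Hbb-bs at 2.59. Jarid2 was at 0.030 with at least 4 genes, 0.10, 0.041 and 0.078 without Gja4, Sox17 and Efnb2, 0.35 without Mki67 or Top2a and 0.14 without its top cells. Hbb-bs was at 0.94 with at least 4 genes, 1.15, 0.93 and 0.96 without Dll4, Sox17 and Efnb2, 3.05 without Mki67 or Top2a and 0.13 without its top cells. For both, 1 control cell held most UMIs. For the other changes the cause was not tested. Members are few, and genes near 20 UMIs have wide intervals.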

Other observations

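Splitting the members by the connexin gene Gja5 separated further genes in the same direction in both libraries. Gja5 was detected in 13 of 41 control and 20 of 74 mutant members, and the cells with it were shallower, with median depths of 9440 against 23381 UMIs in control and 8288 against 15179.5 in mutant. Genes higher in the cells with Gja5 included the transcription factors Sox6 (log2 ratios of 5.64 in control and 4.05 in mutant) and Prdm16 (4.06 and 3.45). Dlk1, a ligand that can inhibit Notch, was higher by 4.37 and 4.27, and Dkk2, a Wnt modulator, by 4.54 and 3.47. Frmd3 was higher by 4.69 and 4.35, the exchanger Slc8a1 by 3.99 and 3.09 and the phosphodiesterase Pde3a by 2.80 and 3.87. Genes lower in those cells included Aplnr (-4.19 and -3.96), Nrp2 (-4.15 and -2.68), the polyamine enzyme Odc1 (-3.03 and -2.43) and the ion channel Piezo2 (-1.87 and -2.24). These cells were chosen by Gja5 itself, so the values are a description.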
